A study of Mus musculus with 27 samples.

Results

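The comparison described here sets E14Tg2a mouse embryonic stem cells 10 h after a pulse of hydrogen peroxide against untreated cells taken at 0 h. It comprises 6 of the 27 libraries of the series, 3 in each group, chosen by their labels. All cells were wild type, were grown on gelatin in serum medium with LIF and 2i, and, in the treated group, received 500 µM peroxide for 30 min, after which the medium was exchanged for spent medium from untreated cells. The series also sampled treated cells at 0.5, 2, 4, 6, 8 and 24 h and untreated cells at 24 h. Its text describes 3 independent time courses, and its labels number the replicates 1 to 3. The dose is given as 500 µM in the treatment protocol and in mM in the design text, and µM is used here. The controls were taken 10 h earlier than the treated cells, and no group with a medium exchange alone was sampled, so peroxide, the exchange and 10 h of further culture cannot be told apart. A lower summed level in such bulk RNA can come from fewer expressing cells or from less RNA per cell, which cannot be told apart either.

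E14Tg2a is a line of pluripotent cells from the mouse blastocyst, held by Pou5f1, Sox2 and Nanog in a network that LIF and 2i stabilise. Peroxide oxidises cysteine residues in proteins such as Keap1, which releases NRF2 to switch on genes for glutathione, thioredoxin and NADPH supply. It also breaks DNA and activates p53, whose targets halt the cycle or promote death. TFEB and TFE3 raise lysosomal genes through E-box elements in their promoters, and ATF4 drives amino acid transport and synthesis and tRNA charging when translation initiation is limited.

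Gene levels are FPKM, fragment counts normalised to transcript length and library size, divided here by 1 scaling factor per library. Over these 6 libraries the factors ran from 0.854 to 1.10, the depth relative to the first untreated library from 1 to 1.10, and the number of genes at 1 FPKM or more from 11516 to 12607. Absolute depth is unknown because the tables hold no counts. The third untreated library stood apart. Its log2 levels climbed by 0.40 for each 10 percentage points of gene GC content relative to the mean of the other untreated libraries, and its ribosomal protein genes lay 1.13 above them in the median. The third 10 h library moved in the same direction, by 0.22 and 0.37, while the first and second 10 h libraries had GC slopes of 0.013 and -0.016. The slopes of the first and second untreated libraries, -0.024 and 0.024, mirror each other because their mean is the baseline. Each result below was therefore recomputed without the third library of either group.

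In all, 12472 genes reached 1 FPKM in 3 or more of the 6 libraries, and of these 3895 changed at an adjusted p below 0.05, 31.2% of those tested. The test was limma on log2(scaled FPKM + 1) with the spread estimated over all 27 libraries, and p-values were adjusted by Benjamini-Hochberg over all genes tested. Of the changed genes 1930 were higher at 10 h (15.5% of those tested) and 1965 lower (15.8%). These shares are the background for the counts within gene lists below. Every 10 h library lay above every untreated one in 15.5% of the genes tested and below in 15.1%. Of the 3895 changed genes 3281 had groups that did not overlap, so such separation is common among changed genes. Without scaling between libraries the split was 2774 higher and 1241 lower, with the median of all genes moved from -0.0094 to 0.106. Most changes were small: 166 genes changed by 2-fold or more on this scale, 85 of them higher and 81 lower, and the added 1 understates the changes of low genes. Without the third libraries 3353 genes changed (26.9%, with 13.3% higher and 13.5% lower), and 3002 of the 3895 were found again in the same direction, none of the 3895 with the sign turned. A fit to the 6 libraries alone, with its spread from 6 values per gene, found 419 genes (3.36%), 268 higher (2.15%) and 151 lower (1.21%). With the replicate number added to that fit as a block, an alternative chosen after seeing the data, 2226 genes changed. No source says that the number pairs libraries, so calls gained with this block, here and below, are not independent support. A total of 412 genes changed in the same direction with all libraries, without the third ones and in the 6 libraries alone. The authors' deposited table marked 934 genes as changed, 762 up and 172 down, with an absolute log2 ratio of at least 1 in each. Of those, 413 passed the filter on low values used here, and 98.5% of these 413 changed in the same direction in the present test. Conversely, 10.45% of the 3895 genes, which had no minimum change, carried the authors' mark. Of the 166 genes at 2-fold or more, 134 (80.7%) carried it.

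**Figure D1:**
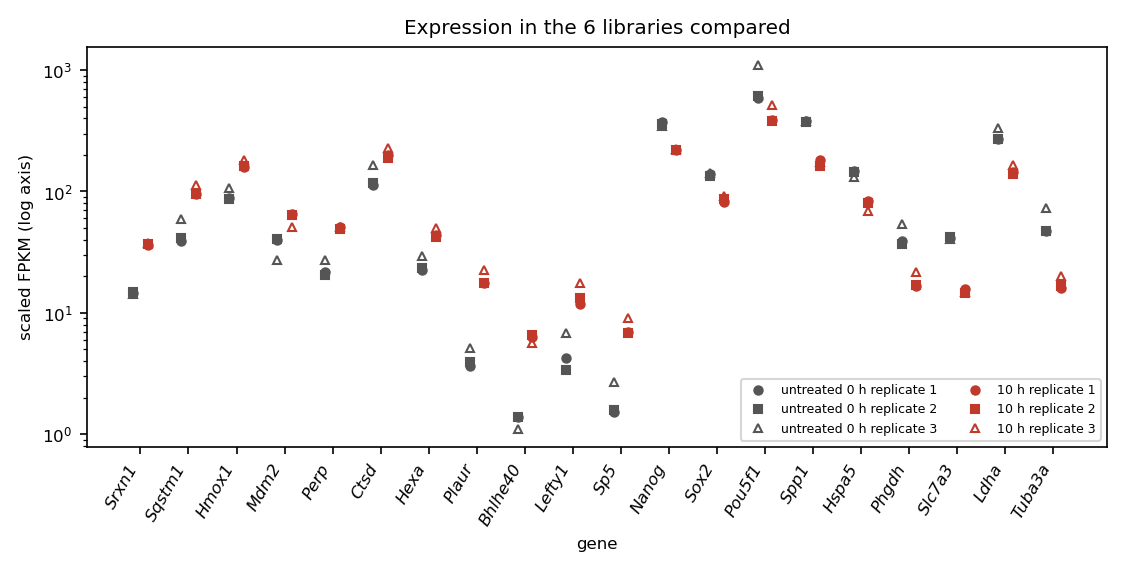
Scaled FPKM of 20 genes in the 3 untreated 0 h libraries (grey) and the 3 libraries at 10 h (red), on a log axis, with open triangles for the third replicates. From Srxn1 to Sp5 every 10 h library lies above every untreated library, and from Nanog to Tuba3a every one lies below.

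Among well expressed genes the largest rises included stress and signalling genes. Plaur, the urokinase receptor and an AP-1 target, stood at 17.5, 17.5 and 22.5 FPKM in the 10 h libraries and at 3.66, 3.92 and 5.15 in the untreated ones, a log2 change of 1.95 ± 0.13 (SE, adjusted p = 8.20e-10). Phlda1, an immediate early gene of growth factor signalling, read 13.3, 13.1 and 15.2 against 2.78, 2.78 and 4.91, with a change of 1.76 ± 0.13 (SE, adjusted p = 3.65e-09). Bhlhe40, a basic helix-loop-helix repressor that feeds back on the circadian clock, read 6.37, 6.58 and 5.64 against 1.39, 1.40 and 1.11 (log2 change 1.65 ± 0.089 SE, adjusted p = 4.09e-11). The rule that chose these genes required groups that did not overlap and the same call without the third libraries, so neither is separate support. Without the third libraries their changes were 1.95, 1.92 and 1.65. The nuclear long noncoding RNA Neat1, which builds paraspeckles, went from 3.26, 4.4 and 2.59 to 14.3, 14.7 and 12.6 FPKM (log2 change 1.77 ± 0.16 SE, adjusted p = 3.20e-08). Sp5, a direct Wnt target, and Sfn, the 14-3-3 sigma protein that p53 induces, changed by 1.56 ± 0.15 and 1.47 ± 0.18 (adjusted p = 9.12e-08 and 2.66e-06). The remaining 4 of the 10 largest rises were mitochondrial tRNA genes, mt-Tq, mt-Tm, mt-Tp and mt-Ty, with changes of 3.35, 2.74, 2.23 and 1.89. Of the 19 mitochondrial tRNA genes tested, 5 were higher and 3 lower, against 15.5% and 15.8% of all genes. The other higher gene was mt-Tc and the lower ones were mt-Tl1, mt-Tt and mt-Tw, of which mt-Tc and mt-Tl1 were named after their values were seen. These genes span 59 to 75 bases, abut or overlap neighbours on a polycistronic transcript, and can lose or gain reads in counting, so their values are uncertain.

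The largest falls were spread over the cytoskeleton, selective autophagy, maternal genes and amino acid uptake. Tuba3a, an alpha-tubulin best known from testis, read 16.1, 16.8 and 20.0 FPKM at 10 h and 47.1, 47.1 and 72.8 in untreated cells (log2 change -1.58 ± 0.12 SE, adjusted p = 3.96e-09). Calcoco2, the autophagy receptor NDP52, fell from 146, 141 and 199.8 to 53.3, 53.7 and 57.7 (log2 change -1.53 ± 0.10 SE, adjusted p = 9.36e-10). Slc7a3, a cationic amino acid transporter, fell from 41.5, 42.0 and 40.4 to 15.6, 14.7 and 14.8, a change of -1.40 ± 0.059 (SE, adjusted p = 1.13e-12), and the third libraries lay within 2 FPKM of the others. In Igfbp2, a secreted binding protein of insulin-like growth factors, the third untreated library was high, 89.9, 92.1 and 216 against 38.8, 37.5 and 52.9 at 10 h, and the change was -1.49 with all libraries and -1.23 without the third ones. The homeobox gene Crxos, the oocyte complex gene Khdc3, the myosin light chain Myl9, Nudt8, Rln3 and mt-Tw completed the 10 largest falls, between -1.53 and -1.40. In the 6 libraries alone Tuba3a, Calcoco2, Crxos and Slc7a3 still passed (adjusted p = 0.0237, 0.0185, 0.0258 and 0.0103), and the other 6 did not (adjusted p from 0.0577 to 0.149), while with the replicate block added to that fit 5 of the 6 passed and Rln3 did not.

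Pluripotency genes were lower at 10 h, by less than 2-fold for most, and none of either list rose. In the core list 10 of 14 tested members fell and 0 rose, against 15.8% and 15.5% of all genes, with a median log2 change of -0.65 against -0.0094 over all genes tested, and the same numbers, 10 and 0, held without the third libraries and without scaling. Nanog, the homeodomain factor of the naive state, read 220.1, 221 and 225 FPKM at 10 h and 371, 361 and 346 in untreated cells, a log2 change of -0.69 ± 0.059 (SE, adjusted p = 2.38e-08). Sox2, its high-mobility-group partner, read 82.6, 86.6 and 92.0 against 138, 135 and 142, a change of -0.66 ± 0.054 (SE, adjusted p = 1.35e-08). In both genes the 10 h libraries lay within 10 FPKM of each other, and all of them lay below the lowest untreated library. Pou5f1, the POU factor Oct4, read 386, 384 and 514 against 587, 608 and 1098. Its change was -0.79 ± 0.19 (SE, adjusted p = 0.00325) and, without the third libraries, -0.63, and the third untreated library held the highest level. Utf1, a chromatin protein of undifferentiated cells, and Foxd3, a forkhead factor needed for stem cell survival, had the largest falls of the list, -1.06 and -1.03, while the corepressor Trim28 fell from 495, 508 and 471 to 289.8, 269 and 306 (log2 change -0.77 ± 0.061 SE, adjusted p = 8.50e-09). With the 6 libraries alone 4 of the 14 passed, Trim28, Nanog, Sox2 and the Nodal co-receptor Tdgf1, and Pou5f1 did not (adjusted p = 0.204), while with the replicate block added to that fit 10 of the 14 were lower, Pou5f1 among them.

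Of the naive regulators 11 of 19 fell and 0 rose, again 11 and 0 without the third libraries and 7 and 0 without scaling, with a median of -0.37. Spp1, osteopontin, fell most, from 381, 372 and 384 to 180.2, 162 and 177 FPKM (log2 change -1.13 ± 0.064 SE, adjusted p = 7.35e-11), with no overlap and near-equal libraries in each group. Klf4 fell by a log2 change of -0.67 ± 0.075, Zfp42 (Rex1) of -0.48 ± 0.055 and Esrrb of -0.33 ± 0.10 (adjusted p = 8.73e-07, 1.18e-06 and 0.0121). Tcl1 and Dppa5a, a cofactor of Akt kinases and an RNA-binding protein of early embryos, changed by -0.91 and -0.58. Of 8 tested formative and primed genes 0 rose and 3 fell, the transcription factors Zic2 and Zic5 and the DNA methyltransferase Dnmt3a, from -0.54 to -0.44. Mycn, the Myc family member abundant in stem cells, fell from 33.1, 31.8 and 30.9 to 17.2, 17.3 and 17.8 (log2 change -0.83 ± 0.063 SE, adjusted p = 3.77e-09), whereas Myc itself, at 12.8, 12.3 and 15.8 against 12.2, 12.5 and 16.1, did not pass (adjusted p = 0.957).

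The primitive streak genes T, Eomes and Wnt3a were at low levels and higher. T (Brachyury), the T-box factor of nascent mesoderm, read 1.92, 2.43 and 2.45 FPKM at 10 h and 0.21, 0.368 and 0.254 in untreated cells (log2 change 1.35 ± 0.083 SE, adjusted p = 2.70e-10). Eomes, a T-box factor of streak and trophoblast, read 5.56, 5.92 and 4.80 against 3.72, 3.78 and 3.19 (log2 change 0.49 ± 0.075 SE, adjusted p = 3.85e-05), and Wnt3a, the streak-inducing ligand, changed by 0.58 ± 0.12 (adjusted p = 0.000916). Of 14 listed streak genes these 3 passed the filter on low values, T and Wnt3a only through their 10 h libraries, so that the count is not read as a result on the list, and without the filter 4 of the 14 rose. Of 5 tested trophectoderm genes 2 rose and 0 fell, and without the filter 2 of 9 rose. Cdx2, the caudal factor of trophectoderm, which also passed the filter only at 10 h, and Tead4, its upstream activator, rose by 0.51 and 0.37. Below the filter Gata3 overlapped between the groups, and Elf5 was at most 0.0247 FPKM. Primitive endoderm markers gave no single direction. Of 6 tested, Lrp2, Sparc, Col4a1 and Col4a2 were lower, between -0.49 and -0.28, but 0 were lower without scaling between libraries, and 0 or 1 when any 1 of the 10 h libraries was left out. Without the filter 3 of 14 were higher and 4 lower, with a median of 0.01. Below the filter, Gata4, a zinc-finger factor of that lineage, read 0.717, 0.689 and 0.916 FPKM at 10 h against 0.343, 0.361 and 0.271 in untreated cells, and Sox7 read 0.933, 0.754 and 0.590 against 0.156, 0.278 and 0.215. Pdgfra read 0.346, 0.222 and 0.207 against 0.126, 0.133 and 0.0315. Gata6, at 0.0806, 0.136 and 0.147 against 0.0554, 0.0839 and 0.0746, overlapped between the groups. So did Sox17, at 0.0563, 0.0277 and 0.157 against 0, 0.0548 and 0.0349. None of the 7 tested genes of the 2-cell-like state passed, whereas 4 were lower with the replicate number as a block or with both untreated groups as the control, and 3 with the block and without the third libraries. Zscan4f, a telomere regulator of that state, read 27.6, 20.9 and 18.6 against 36.3, 25.6 and 23.3, with an adjusted p of 0.191 in the main fit and of 0.0224 with the replicate number as a block.

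Sequences of the promoters that the antioxidant and lysosomal results turn on are given here, 250 bases before to 50 after the annotated start, from RefSeq on GRCm38.p6, written in the direction of the gene. For the NRF2 targets, capitals mark TGACNNNGC, the core of the antioxidant response element, sought on both strands. Srxn1 and Gclm are shown as the sharpest NRF2 target responses that hold the motif. The first lies at chr2:152105274-152105573 (plus strand) and the second at chr3:122245307-122245606 (plus strand).
Srxn1: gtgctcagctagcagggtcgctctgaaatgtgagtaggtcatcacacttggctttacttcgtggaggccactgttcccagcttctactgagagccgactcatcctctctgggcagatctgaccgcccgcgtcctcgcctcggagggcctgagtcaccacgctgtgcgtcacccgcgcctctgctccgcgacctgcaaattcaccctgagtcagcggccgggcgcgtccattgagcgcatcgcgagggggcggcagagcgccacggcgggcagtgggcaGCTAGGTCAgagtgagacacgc
Gclm: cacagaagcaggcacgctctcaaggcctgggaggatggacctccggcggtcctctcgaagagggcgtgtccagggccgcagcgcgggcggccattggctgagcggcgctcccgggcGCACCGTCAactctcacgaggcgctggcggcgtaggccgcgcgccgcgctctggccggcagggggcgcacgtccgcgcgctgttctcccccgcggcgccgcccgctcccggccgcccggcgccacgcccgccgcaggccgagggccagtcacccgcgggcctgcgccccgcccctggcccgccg
The motif occurs in the promoters of 10 of the 25 listed NRF2 targets that have a promoter in the table (40.0%), of 16.83% of the tested genes and in 12.39% of all 32851 promoters. Of the 13 changed members with a promoter, 6 hold it, among them Srxn1, Gclm and Txnrd1. A match is a string of letters and says nothing of binding.

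Of 28 tested NRF2 targets 14 were higher and 4 lower, against 15.5% and 15.8% of all genes, with a median change of 0.20. Without the third libraries 14 were higher and 3 lower, with a median of 0.25. Without the first untreated library the median was 0.13. Sulfiredoxin Srxn1, which repairs over-oxidised peroxiredoxins, rose from 14.6, 14.8 and 14.3 to 36.4, 37.2 and 37.9 FPKM, a change of 1.30 ± 0.053 (SE, adjusted p = 1.13e-12). Its libraries were within 4 FPKM of each other in each group, the third ones included. Cbr3, a carbonyl reductase, rose from 11, 9.12 and 15.9 to 26.3, 28.1 and 33.5 (log2 change 1.24 ± 0.15 SE, adjusted p = 1.98e-06). Sqstm1, the autophagy receptor p62 that also sequesters Keap1, rose from 39.1, 41.2 and 59.5 to 95.4, 95.7 and 113 (log2 change 1.13 ± 0.13 SE, adjusted p = 9.54e-07). Heme oxygenase Hmox1 was already abundant, at 88.8, 86.4 and 106, and reached 159, 161 and 180.4 (log2 change 0.83 ± 0.086 SE, adjusted p = 3.20e-07). Gclm, the modifier subunit of the rate-limiting enzyme of glutathione synthesis, stood at 24.9, 23.6 and 24.1 against 13.9, 13.4 and 13.6 (log2 change 0.79 ± 0.068 SE, adjusted p = 2.55e-08). The quinone reductase Nqo1 and the thioredoxin reductase Txnrd1, both classic NRF2 targets, changed less, 0.38 ± 0.075 and 0.38 ± 0.11 (adjusted p = 0.00065 and 0.0104). The 4 lower members were Gsta4 (-0.89), a glutathione transferase for lipid aldehydes, and Taldo1, Idh1 and Tkt (-0.42, -0.35 and -0.35), which supply NADPH or pentoses, Idh1 and Tkt being named after their values were seen. In the 6 libraries alone 5 members passed, Srxn1, Cbr3, Sqstm1, Hmox1 and Gclm, and with the replicate block added to that fit 9 were higher and 3 lower.

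Glutathione and thioredoxin enzymes changed in both directions, with counts that depended on the processing. Of 31 tested 2 rose and 11 fell, or 4 and 8 without the third libraries, with medians of -0.36 and -0.19. Without scaling 6 rose and 10 fell, and without the third untreated library alone 6 rose and 7 fell, with a median of -0.06. Catalase (Cat) and glutathione synthetase (Gss), named after their values were seen, were the higher ones, 0.46 ± 0.064 and 0.42 ± 0.058 (adjusted p = 1.32e-05 and 1.36e-05). Chac1, which degrades glutathione, fell from 5.39, 5.35 and 7.93 to 2.58, 2.46 and 2.82 FPKM (log2 change -0.98 ± 0.17 SE, adjusted p = 0.00012), and Msrb2 and Gpx7, a methionine sulfoxide reductase and a peroxidase of the endoplasmic reticulum, changed by -0.77 and -0.80. Prdx2, an abundant cytosolic peroxiredoxin, depended on the third libraries: 52.6, 50.3 and 65.7 against 64.7, 66.7 and 129, adjusted p = 0.0375 with them and 0.125 without. Txnip, the inhibitor of thioredoxin, and its relative Arrdc4 fell by log2 changes of -0.64 ± 0.072 and -0.81 ± 0.076 (adjusted p = 9.12e-07 and 7.26e-08). Of 15 heme and iron genes 4 rose and 1 fell, against 15.5% and 15.8% of all genes. The risers were Hmox1, the heme exporter Flvcr1 (0.60), the heme transporter Slc48a1 (0.57) and Abcb6 (0.47). Slc11a2 (-0.31), named after its values were seen, fell.

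Lysosomal genes were mostly higher. Of 45 tested 28 were higher and 1 lower, with a median change of 0.40, and without the third libraries 26 and 2, again with a median of 0.40. Promoters of Ctsa, Ctsd and Mcoln1 are shown because each rose and holds TCACGTGA, the palindromic E-box of the TFEB family, in capitals. Ctsa lies at chr2:164833523-164833822 (plus strand), Ctsd at chr7:142387778-142388077 (minus strand) and Mcoln1 at chr8:3500269-3500568 (plus strand).
Ctsa: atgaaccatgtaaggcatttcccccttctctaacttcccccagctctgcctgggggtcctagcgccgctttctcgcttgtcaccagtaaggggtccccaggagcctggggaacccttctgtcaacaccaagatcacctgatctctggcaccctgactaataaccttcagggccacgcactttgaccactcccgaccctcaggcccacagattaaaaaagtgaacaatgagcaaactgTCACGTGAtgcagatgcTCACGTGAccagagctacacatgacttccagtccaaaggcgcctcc
Ctsd: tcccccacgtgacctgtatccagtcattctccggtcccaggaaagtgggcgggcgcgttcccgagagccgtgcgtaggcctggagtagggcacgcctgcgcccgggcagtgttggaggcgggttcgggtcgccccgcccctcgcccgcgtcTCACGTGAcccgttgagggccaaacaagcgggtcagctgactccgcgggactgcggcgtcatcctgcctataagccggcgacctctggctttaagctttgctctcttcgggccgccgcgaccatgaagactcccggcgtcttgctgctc
Mcoln1: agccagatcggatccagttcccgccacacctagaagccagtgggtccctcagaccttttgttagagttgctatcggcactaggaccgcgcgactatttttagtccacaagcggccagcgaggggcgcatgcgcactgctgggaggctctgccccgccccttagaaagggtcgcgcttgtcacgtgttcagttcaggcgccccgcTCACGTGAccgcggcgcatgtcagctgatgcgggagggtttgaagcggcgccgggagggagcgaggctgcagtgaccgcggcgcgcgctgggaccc
This string stands in the promoters of 8 of the 40 lysosomal genes with a promoter in the table (20.0%), of 2.38% of the tested genes and in 0.97% of all promoters. Its shorter core CACGTG, which each longer match also contains, stands in 16 of the 40 (40.0%), in 12.49% of the tested genes and in 7.15% of all promoters. Among the 23 changed members with a promoter, 5 held the longer and 10 the shorter string.

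Cathepsin D (Ctsd), the aspartic protease of lysosomes, read 201, 189 and 229.8 FPKM at 10 h against 113, 118 and 164, a change of 0.66 ± 0.12 (SE, adjusted p = 0.00028), or 0.76 without the third libraries. Hexa, the alpha subunit of hexosaminidase, read 44.1, 41.8 and 49.6 against 22.5, 23.5 and 29.4 (log2 change 0.83 ± 0.10 SE, adjusted p = 2.42e-06). Gaa, acid alpha-glucosidase, read 30.3, 27.7 and 32.8 against 16.1, 17.1 and 17.2 (log2 change 0.81 ± 0.072 SE, adjusted p = 3.51e-08). In all 3 genes the groups did not overlap, as in 3281 of the 3895 changed genes. Fnip1, a folliculin partner in lysosomal amino acid sensing, had the largest estimate, 0.84 ± 0.23 (SE, adjusted p = 0.00717), but the third libraries were low in both groups, 8.53, 8.55 and 4.89 against 4.58, 4.59 and 1.97, so that the groups only just parted. The calcium channel Mcoln1 and the protective protein Ctsa, named after their values were seen, changed by 0.50 and 0.34 (adjusted p = 3.72e-05 and 0.0156). Tfeb itself, the regulator, was the 1 lower member, 3.62, 3.44 and 4.78 against 5.79, 5.64 and 12.5 (log2 change -0.79 ± 0.21 SE, adjusted p = 0.00644). Of 27 autophagy genes 8 rose and 3 fell, against 15.5% and 15.8% of all genes. Sqstm1 and Gabarapl1 (0.82 ± 0.10), a membrane-tethering ubiquitin-like protein, led the rises, while Gabarapl2, its paralogue, and Bnip3 and Bnip3l, mitophagy receptors, had log2 changes of -0.61, -0.65 and -0.28, Bnip3l being named after its values were seen. With the 6 libraries alone 8 lysosomal genes passed, all higher, and with the replicate block added to that fit 24 were higher and 1 lower.

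**Figure D2:**
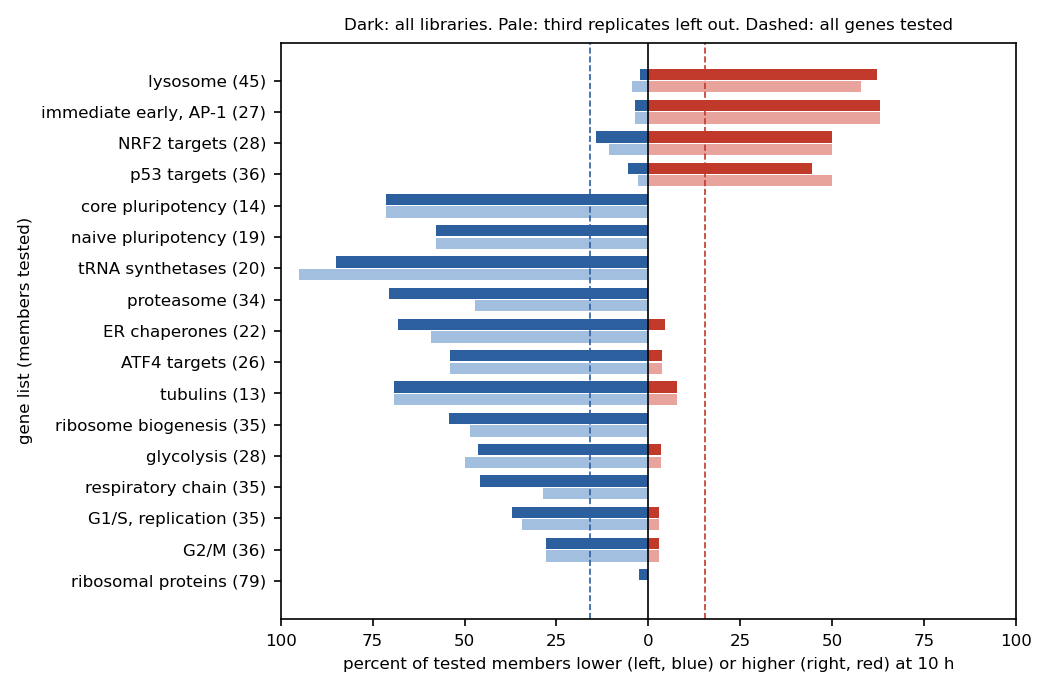
Percent of tested members of 17 gene lists that were higher (right) or lower (left) at 10 h than in untreated cells, with all libraries (dark) and without the third replicates (pale). Dashed lines mark the shares over all genes tested, 15.5% higher and 15.8% lower, and the lysosomal, immediate early, NRF2 and p53 bars pass the line on the right while the pluripotency, tRNA synthetase and proteasome bars pass it on the left.

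Targets of p53 remained above untreated cells while the transcript of p53 itself was lower. Of 36 tested 16 were higher and 2 lower, with a median of 0.22, and without the third libraries 18 and 1, with a median of 0.28. Pmaip1, the BH3-only death protein Noxa, read 14.2, 16.2 and 13.1 FPKM against 7.99, 6.63 and 4.24 (log2 change 1.12 ± 0.14 SE, adjusted p = 3.74e-06). Perp, a membrane protein induced in p53-dependent death, read 51.0, 49.2 and 51.0 against 21.5, 20.4 and 27.2 (log2 change 1.11 ± 0.082 SE, adjusted p = 3.20e-09). The polo-like kinase Plk2 and the translesion polymerase Polk changed by 0.95 ± 0.11 and 0.82 ± 0.18 (adjusted p = 1.09e-06 and 0.00158). Mdm2, the ubiquitin ligase that degrades p53, read 64.9, 63.8 and 50.5 against 40.1, 40.6 and 27.4 (log2 change 0.73 ± 0.13 SE, adjusted p = 0.000218), and the cycle inhibitor Cdkn1a read 41.9, 41.2 and 51.2 against 26.5, 25.9 and 37.4 (log2 change 0.58 ± 0.12 SE, adjusted p = 0.00125). Groups did not overlap in these 6 genes, as in 3281 of the 3895 changed genes. The third libraries of Mdm2 and Polk were lower than the others in both groups. Ccng1 was high in both groups and changed by 0.27 ± 0.084 (adjusted p = 0.0181). Trp53 read 73.5, 71.8 and 92.3 against 99.4, 102 and 161 (log2 change -0.58 ± 0.15 SE, adjusted p = 0.00538). The lower members were Gtse1 and Tigar, -0.21 and -0.19, named after their values were seen. In the 6 libraries alone 5 p53 targets passed and Mdm2 and Cdkn1a did not (adjusted p = 0.107 and 0.145), while with the replicate block added to that fit 14 were higher, Mdm2 and Cdkn1a among them, and 0 lower.

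Of 35 genes of G1/S and replication 13 fell and 1 rose (6 and 3 without scaling), with the clamp loader subunits Rfc4 and Rfc2 at -0.74 and -0.52 and thymidylate synthase Tyms at -0.63. The riser was Ccne2 (0.40), and in the G2/M list Foxm1 (0.42), both named after their values were seen. Of 36 G2/M genes 10 fell (6 without scaling), among them Ccnb2, Plk1 and Cdk1, by log2 changes of -0.62, -0.53 and -0.49. The median of the G2/M list was -0.12 and became 0.02 without scaling, so its direction as a whole depended on that step. Cyclin D1 (Ccnd1) fell from 37.9, 37.1 and 32.0 to 18.9, 20.2 and 16.5 FPKM (log2 change -0.91 ± 0.093 SE, adjusted p = 2.56e-07) and Ccnd3 changed by -0.78 ± 0.18 (adjusted p = 0.00217). Histone genes seen in poly(A) RNA were lower in 7 of 8 tested, and in 4 without the third libraries, among them H2az1 (-0.84) and H1f2 (-0.90).

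Of 27 tested immediate early and AP-1 genes 17 were higher and 1 lower, with and without the third libraries, against 15.5% and 15.8% of all genes. The medians were 0.48 and 0.55. Without the filter on low values 20 of 34 were higher and 1 lower, with a median of 0.36. Besides Plaur and Phlda1 these included Jun, the AP-1 subunit, at 5.80, 5.54 and 5.41 FPKM against 2.13, 2.45 and 1.92 (log2 change 1.06 ± 0.073 SE, adjusted p = 1.21e-09), and Dusp1, a phosphatase that switches off stress kinases, at 13.1, 12.9 and 13.4 against 5.84, 5.29 and 6.76 (log2 change 1.03 ± 0.066 SE, adjusted p = 5.53e-10). Groups stayed apart in both, as in 3281 of the 3895 changed genes. Fosl1 rose from 0.0803, 0.147 and 0.0829 to 0.926, 1.08 and 1.06 (log2 change 0.87 ± 0.12 SE, adjusted p = 1.13e-05), but it passed the filter only through its 10 h libraries. Fos, at 1.80, 1.59 and 1.76 against 1.07, 1.15 and 0.672, passed with all libraries (adjusted p = 0.00387) and not without the third ones (adjusted p = 0.0583). Srf, the serum response factor, named after its values were seen, was the lower member (-0.53). Of 11 genes of FGF and ERK signalling 3 rose and 1 fell, against 15.5% and 15.8% of all genes. The feedback inhibitors Spry4 and Spry1 rose by 0.64 ± 0.087 and 0.54 ± 0.10 (adjusted p = 1.04e-05 and 0.000352) and the receptor Fgfr4 by 0.54, while the ligand Fgf4 changed by -0.33.

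Ligands, inhibitors and targets of the Nodal, Wnt and BMP pathways changed in both directions. Of 15 Nodal genes 3 were higher and 2 lower (4 and 3 without the third libraries), shares near those of all genes, 15.5% and 15.8%. Lefty1, a secreted Nodal inhibitor, stood at 11.9, 13.2 and 17.7 FPKM at 10 h against 4.21, 3.39 and 6.78 in untreated cells (log2 change 1.42 ± 0.18 SE, adjusted p = 5.33e-06). Its relative Lefty2 stood at 18.5, 19.2 and 20.6 against 7.52, 7.60 and 9.38 (log2 change 1.16 ± 0.11 SE, adjusted p = 1.03e-07). In both genes the groups did not overlap, as in 3281 of the 3895 changed genes. Their co-receptor Tdgf1 (Cripto) fell from 195, 194 and 226 to 128, 128 and 134 (log2 change -0.65 ± 0.059 SE, adjusted p = 4.45e-08), the proconvertase Pcsk6 changed by -0.40, and its relative Furin, named after its values were seen, by 0.36. In the Wnt list 4 of 13 rose and 5 fell, with or without the third libraries. Sp5 read 6.96, 6.80 and 9.0 against 1.53, 1.60 and 2.70 (log2 change 1.56 ± 0.15 SE, adjusted p = 9.12e-08), and the feedback inhibitor Axin2, Cdx1 and Tcf7, named after their values were seen, changed by 0.78, 0.79 and 0.58. Notum, a secreted enzyme that inactivates Wnt ligands, fell from 12.5, 13.1 and 20.8 to 4.77, 4.69 and 6.85 (log2 change -1.33 ± 0.17 SE, adjusted p = 3.25e-06), and the repressor Tcf7l1 from 26.4, 24.1 and 29.2 to 12.9, 12.3 and 13.6 (log2 change -0.98 ± 0.073 SE, adjusted p = 3.57e-09). The other falls were Ccnd1 and, named after their values were seen, the Wnt acyltransferase Porcn (-0.90) and Tnfrsf19 (-0.24, adjusted p = 0.0534 without the third libraries). Of 13 BMP genes 4 rose, led by the BMP targets Id1 (1.04 ± 0.23) and Id2 (0.59 ± 0.13), and the inhibitors Smad6 (-0.60) and Bambi (-0.47), the latter named after its values were seen, fell.

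Most genes that charge tRNAs were lower. Of 20 tested aminoacyl-tRNA synthetases 17 fell and 0 rose, against 15.8% lower over all genes, and 19 and 0 without the third libraries, with medians of -0.49 and -0.52. Mars1, for methionine, read 36.1, 35.1 and 34.9 FPKM against 60.8, 63.4 and 57.2 (log2 change -0.76 ± 0.049 SE, adjusted p = 6.79e-10). Yars, for tyrosine, read 24.1, 23.2 and 25.2 against 38.8, 41.3 and 39.0 (log2 change -0.69 ± 0.058 SE, adjusted p = 1.71e-08), and Gars, for glycine, 82.2, 77.4 and 75.6 against 123, 128 and 122 (log2 change -0.66 ± 0.057 SE, adjusted p = 2.39e-08). In all 3 genes the third library lay close to the others of its group. The Gars promoter, at chr6:55037751-55038050 (plus strand) on GRCm38.p6 in RefSeq, is shown for its match to TGATGNAAT, a string of the ATF4 response element, in capitals on either strand.
Gars: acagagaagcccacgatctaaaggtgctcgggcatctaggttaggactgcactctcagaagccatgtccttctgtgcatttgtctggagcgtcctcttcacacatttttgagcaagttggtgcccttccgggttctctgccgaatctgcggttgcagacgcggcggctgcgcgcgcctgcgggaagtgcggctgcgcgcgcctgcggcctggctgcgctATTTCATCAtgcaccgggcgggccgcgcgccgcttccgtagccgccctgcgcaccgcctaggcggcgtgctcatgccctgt
Of the 13 synthetase genes with a promoter listed, 3 hold this string (23.1%), against 0.57% of the tested genes and 0.96% of all promoters.

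In the wider list of ATF4 targets 14 of 26 fell and 1 rose, the same counts without the third libraries, with a median of -0.55. Phgdh, the entry enzyme of serine synthesis, fell from 39.0, 37.1 and 54.3 to 16.7, 17.1 and 21.7 FPKM (log2 change -1.18 ± 0.13 SE, adjusted p = 9.48e-07), and Aldh18a1, of proline synthesis, from 17.0, 17.1 and 12.4 to 7.96, 6.47 and 6.49 (log2 change -1.04 ± 0.10 SE, adjusted p = 1.40e-07). The riser was Cebpg (0.52), a dimer partner of ATF4, named after its values were seen. Atf4 itself read 76.1, 76.1 and 92.4 against 82.8, 80.1 and 117 and did not pass (adjusted p = 0.257). Of 22 chaperones of the endoplasmic reticulum 15 fell and 1 rose, or 13 and 0 without the third libraries. Hspa5 (BiP), the main one, read 83.4, 80.7 and 69.4 against 147, 144 and 132 (log2 change -0.85 ± 0.08 SE, adjusted p = 7.53e-08) and Hsp90b1 87.5, 87.3 and 73.0 against 174, 164 and 136 (log2 change -0.93 ± 0.11 SE, adjusted p = 1.15e-06), while the riser Edem1, named after its values were seen, changed by 0.28. Manf and Calr, a secreted survival factor and a calcium-binding lectin, had log2 changes of -1.03 and -0.83. Cytosolic heat shock genes were split, 3 higher and 9 lower of 21, or 6 and 5 without scaling. Inducible Hspa1a read 2.31, 2.92 and 5.84 against 1.42, 1.37 and 1.73 (log2 change 0.83 ± 0.21 SE, adjusted p = 0.00455), and the cochaperone Fkbp4 142, 135 and 155 against 240.5, 240.2 and 301 (log2 change -0.84 ± 0.085 SE, adjusted p = 1.92e-07). Hspb8 and Hspa1b, named after their values were seen, were the other higher ones, 0.65 and 0.65, and Hspa1b did not pass without the third libraries (adjusted p = 0.0611).

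Proteasome, respiratory chain and ribosomal protein genes gave larger counts and medians with the third libraries than without them. Proteasome subunits were lower in 24 of 34 with all libraries and in 16 of 34 without the third ones, with medians of -0.41 and -0.29 and 0 higher in either. Psma6, of the core particle, fell from 188, 179 and 261 to 128, 122 and 149.6 FPKM (log2 change -0.64 ± 0.11 SE, adjusted p = 0.000108), whereas Psmb5, a catalytic subunit, passed only with the third libraries (adjusted p = 0.0452 with and 0.145 without). Nuclear genes of the respiratory chain were lower in 16 of 35 and in 10 of 35 without the third libraries, and ribosome biogenesis genes in 19 and 17 of 35. Without scaling these counts were 12 of 34, 8 of 35 and 8 of 35. Bop1, an rRNA processing factor, fell by a log2 change of -0.63 ± 0.11 (adjusted p = 0.000254). Of the 79 ribosomal protein genes 2 passed, Rpl30 and Rpl5, and 0 without the third libraries, with medians of -0.34 and -0.13. The GC slope and the ribosomal protein shift of the third untreated library, given above, moved with these lists. With a correction for GC content and length 24 proteasome, 15 respiratory chain, 21 ribosome biogenesis and 1 ribosomal protein genes were lower, and with library weights 29, 25, 25 and 11.

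Glycolytic and hypoxia-regulated genes were lower in 13 of 28, with 1 higher, and 14 and 1 without the third libraries. Ldha, lactate dehydrogenase A, fell from 269, 271 and 331 to 144, 138 and 165 FPKM (log2 change -0.96 ± 0.076 SE, adjusted p = 8.75e-09), Tpi1, triosephosphate isomerase, from 68.1, 71.1 and 131 to 37.6, 38.2 and 52.4 (log2 change -1.01 ± 0.18 SE, adjusted p = 0.000236) and Pfkl, liver-type phosphofructokinase, by -0.74 ± 0.10 (adjusted p = 7.73e-06). The higher one was Pfkfb4 (0.45), a regulator of phosphofructokinase, named after its values were seen. Tubulins fell in 9 of 13 with 1 higher, with or without the third libraries: Tubb2b read 119, 115 and 132 against 211, 212 and 228 (log2 change -0.83 ± 0.061 SE, adjusted p = 3.39e-09) and Tuba1b 668, 635 and 785 against 1108, 1098 and 1405 (log2 change -0.79 ± 0.10 SE, adjusted p = 7.09e-06). Tube1, named after its values were seen, was the higher one (0.25). Basement membrane and integrin genes fell in 6 of 19, in 12 without the third libraries and in 2 without scaling. Nid1, nidogen, read 17.4, 18.7 and 13.7 against 38.4, 36.4 and 20.7 (log2 change -0.86 ± 0.18 SE, adjusted p = 0.00108), with the third libraries low in both groups. Of 30 tested chromatin methylation enzymes 2 rose and 5 fell, or 2 and 9 without the third libraries, against 15.5% and 15.8% of all genes. Dnmt3l, the regulator of de novo DNA methylation, fell from 126, 128 and 186 to 74.5, 66.4 and 85.3 (log2 change -0.93 ± 0.13 SE, adjusted p = 1.01e-05), and the histone methyltransferase Suv39h1 rose from 3.48, 3.75 and 3.49 to 5.63, 6.31 and 5.12 (log2 change 0.55 ± 0.069 SE, adjusted p = 4.42e-06).

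The remaining lists are described by their counts, to be read beside the 15.5% higher and 15.8% lower of all genes tested. Of 12 Bcl2 family genes 5 rose and 0 fell, Pmaip1, the death genes Bcl2l11 (Bim, 0.39) and Bid (0.23, named after its values were seen) and the survival genes Bcl2l2 (0.52) and Bcl2l1 (0.25). In the Myc network 3 of 13 rose and 2 fell, or 3 and 3 without the third libraries, with a median of -0.01. The antagonists Mxd1, Mnt and Mxd4 rose by 0.49, 0.27 and 0.25, and Mycn, given above, was among the falls. Of 35 DNA repair genes 2 rose and 9 fell, or 5 and 5 without scaling, the falls led by the base excision enzyme Apex1 (-0.71 ± 0.094) and the end-joining subunits Xrcc5 and Xrcc6 (-0.57 and -0.41). The risers Neil3 and Rad18 (0.32 and 0.34) were named after their values were seen. Of 23 cholesterol synthesis genes 1 rose and 7 fell, or 1 and 3 without scaling, with Ebp at -0.77, Fdps at -0.74 and the riser Sc5d, named after its values were seen, at 0.31. In the LIF and STAT3 list 1 of 14 rose and 4 fell, or 3 and 2 without scaling. The receptor Lifr changed by -0.42, and the kinase Jak2 was the riser (0.55). The YAP and TEAD list had 5 of 14 higher and 1 lower, among the higher ones tissue factor F3 (0.58) and the kinase Lats2 (0.49), with Tead2 (-0.48) the lower one. Of 12 clock genes Bhlhe40, Tef (0.46) and Arntl (0.35) rose and Ciart (-0.58) fell. Of 27 splicing kinases and factors 5 rose and 9 fell, or 6 and 4 without scaling, and the cold-inducible Cirbp changed by -0.47. Of 18 imprinted genes 3 were higher and 3 lower (6 and 1 without scaling), shares near the 15.5% and 15.8% of all genes, with the translational regulator Impact at 77.0, 77.7 and 64.2 against 33.7, 33.2 and 25.1 (log2 change 1.23 ± 0.10 SE, adjusted p = 1.00e-08). Of the 13 mitochondrial messenger RNAs mt-Nd4l and mt-Co1 were higher (0.67 and 0.43) and mt-Nd3 and mt-Atp6 lower (-0.86 and -0.66). Without the third untreated library 3 were higher and 0 lower, with a median of 0.23 in place of -0.24, and without the first 10 h library 2 were higher and 0 lower. Of 7 metallothionein, zinc and copper genes 1 rose and 0 fell. The riser, metallothionein Mt1, changed by 0.86 ± 0.27 (adjusted p = 0.0204), and its groups overlapped. Without the first or without the second untreated library 0 of the 7 rose and 1 fell.

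To place 10 h within the response, the same libraries were compared with treated cells at 8 h and 6 h. Against 8 h, 790 genes differed (6.33% of 12472), 347 higher and 443 lower at 10 h. Without the third 10 h and untreated libraries it was 1132 (9.08%, with 4.11% higher and 4.97% lower). Against 6 h, 4204 differed (33.7%), 2010 higher and 2194 lower, and without those libraries 5310 (42.6%, with 19.6% higher and 22.9% lower). The summed FPKM of 18 hepatocyte markers was 1.45 to 2.20 at 10 h, but 52.3 in the third library of 6 h, 60.4 and 68.9 in 2 of the 3 libraries of 8 h and 48.1 to 65.3 in untreated cells of 24 h. The part of those transcripts in the comparisons between times was not tested. Libraries kept in these comparisons also had raised GC slopes and ribosomal protein shifts. They were 0.21 and 0.40 in the third 8 h library. In the 6 h libraries the slopes were 0.10 to 0.11 and the shifts 0.30 to 0.31. Leaving out the third 10 h and untreated libraries therefore does not balance these comparisons. Lefty1 and Lefty2 had the largest increases among genes with a mean of 5 FPKM or more since 8 h, 1.09 and 1.43, and since 6 h, 3.01 and 2.75 (adjusted p = 0.000844, 1.79e-07, 9.62e-11 and 2.84e-13). Lefty1 stood at 4.79 ± 1.77 FPKM (mean ± SD, n = 3) before treatment, 0.885 ± 0.32 at 6 h, 6.06 ± 0.621 at 8 h and 14.2 ± 3.05 at 10 h, so that it passed from below to above its starting level. Sfn stood at 17.2 ± 6.27, 10.8 ± 0.58, 28.1 ± 3.57 and 48.1 ± 7.56 FPKM at the same times, and Eomes rose by 1.99 since 6 h. Peg10, Ccn2 and Mat2a completed the 5 largest increases since 8 h at that level, 0.87, 0.82 and 0.80, and Cdc42ep5, a Cdc42 effector, rose by 1.77 since 6 h.

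**Figure D3:**
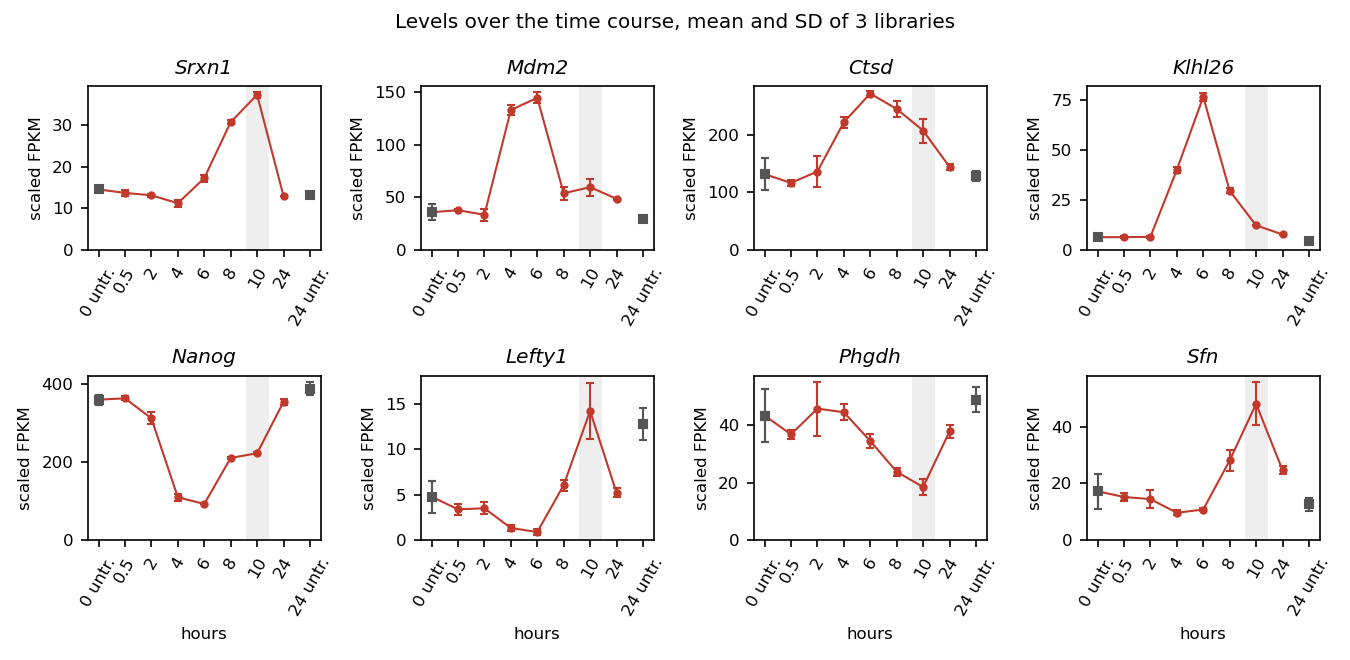
Scaled FPKM of 8 genes over the time course, mean and SD of 3 libraries, with treated cells in red, untreated cells as grey squares and 10 h shaded. Mdm2, Ctsd and Klhl26 are past their highest mean by 10 h, while Srxn1, Lefty1 and Sfn have their highest treated mean and Phgdh its lowest at 10 h.

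Klhl26, which encodes a kelch protein, declined most. It read 6.50 ± 0.63 FPKM (mean ± SD, n = 3) in untreated cells, 76.5 ± 1.77 at 6 h, 29.7 ± 1.17 at 8 h and 12.4 ± 0.255 at 10 h, a difference from 8 h of -1.19 ± 0.077 (SE, adjusted p = 1.06e-08), and remained 0.84 above untreated cells. Tbc1d8, Ppp1r13l, Aqp3 and Ptpn14 followed, with differences from 8 h between -0.73 and -0.65. Since 6 h Fosl1, Nectin4, Tas1r1 and the p53 relative Trp73 fell next most, between -2.21 and -1.93, and of these Trp73 no longer passed against untreated cells (adjusted p = 0.111). Of the 36 p53 targets 25 were lower and 2 higher at 10 h than at 6 h, against 17.6% and 16.1% of all genes. Compared with 8 h, 0 of them were lower and 2 higher, against 3.55% and 2.78%. Mdm2 was at 144 ± 5.01 FPKM (mean ± SD, n = 3) at 6 h, 53.9 ± 6.00 at 8 h and 59.7 ± 8.00 at 10 h.

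Some NRF2 targets were still rising. Srxn1 was at 17.2 ± 0.85 FPKM (mean ± SD, n = 3) at 6 h, 30.6 ± 0.403 at 8 h and 37.2 ± 0.731 at 10 h, its highest mean of the course, with a difference from 8 h of 0.27 ± 0.053 (SE, adjusted p = 0.0037). Hmox1, with its highest mean at 6 h, differed from 8 h by -0.37 ± 0.086 (SE, adjusted p = 0.0121). Over the list, 5 of 28 were higher and 1 lower at 10 h than at 8 h, against 2.78% and 3.55% of all genes. Nanog stood at 92.4 ± 1.22 FPKM (mean ± SD, n = 3) at 6 h, 210.4 ± 3.23 at 8 h and 222 ± 2.73 at 10 h, and of the 14 core pluripotency genes 7 were higher and 2 lower at 10 h than at 6 h. Pou5f1 was 1 of those lower, with a difference of -0.49 ± 0.19 (SE, adjusted p = 0.0499). Of 36 G2/M genes 19 were higher and 0 lower at 10 h than at 6 h, against 16.1% and 17.6% of all genes. Of 20 synthetases 16 were lower at 10 h than at 6 h, and 0 passed in either direction against 8 h. Of 45 lysosomal genes 16 were lower and 2 higher than at 6 h, and Ctsd went from 271 ± 4.45 at 6 h to 207 ± 20.7 at 10 h.

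The effect at 24 h, treated against untreated cells of the same time, was compared with the effect at 10 h, with which it shares no library. It differed in 1126 genes (9.03%), 594 with a higher and 532 with a lower value at 24 h. Without the third 10 h and 0 h libraries the number was 1601 (12.8%, with 7.42% higher and 5.42% lower). The untreated 24 h libraries had ribosomal protein shifts of 0.44, 0.16 and 0.50, and the treated 24 h ones of -0.094, -0.159 and -0.135. The part of this imbalance in the 24 h effect was not tested. Srxn1, 1.30 at 10 h, was at -0.023 at 24 h, a difference of -1.32 ± 0.075 (SE, adjusted p = 5.49e-10). Sqstm1, Hmox1 and Gclm went from 1.13, 0.83 and 0.79 to 0.23, 0.073 and 0.033, and each difference passed. In Mdm2 and Perp the effects at 24 h were 0.72 and 1.26, and the differences from 10 h were -0.0043 ± 0.18 (SE, adjusted p = 0.995) and 0.16 ± 0.12 (SE, adjusted p = 0.522). Of 36 p53 targets 1 differed upward and 1 downward, of 45 lysosomal genes 0 and 14, of 20 synthetases 10 and 0, of 14 core pluripotency genes 7 and 0 and of 19 basement membrane and integrin genes 9 and 0, against 4.76% and 4.27% of all genes. The Lefty genes reversed, to -1.15 and -0.93 at 24 h. Lefty1 read 5.23 ± 0.525 FPKM (mean ± SD, n = 3) in treated and 12.8 ± 1.77 in untreated cells at 24 h, the latter close to the 14.2 ± 3.05 of treated cells at 10 h. Ldha stayed low, -0.80 at 24 h against -0.96 at 10 h, a difference of 0.16 ± 0.11 (SE, adjusted p = 0.462).

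**Figure D4:**
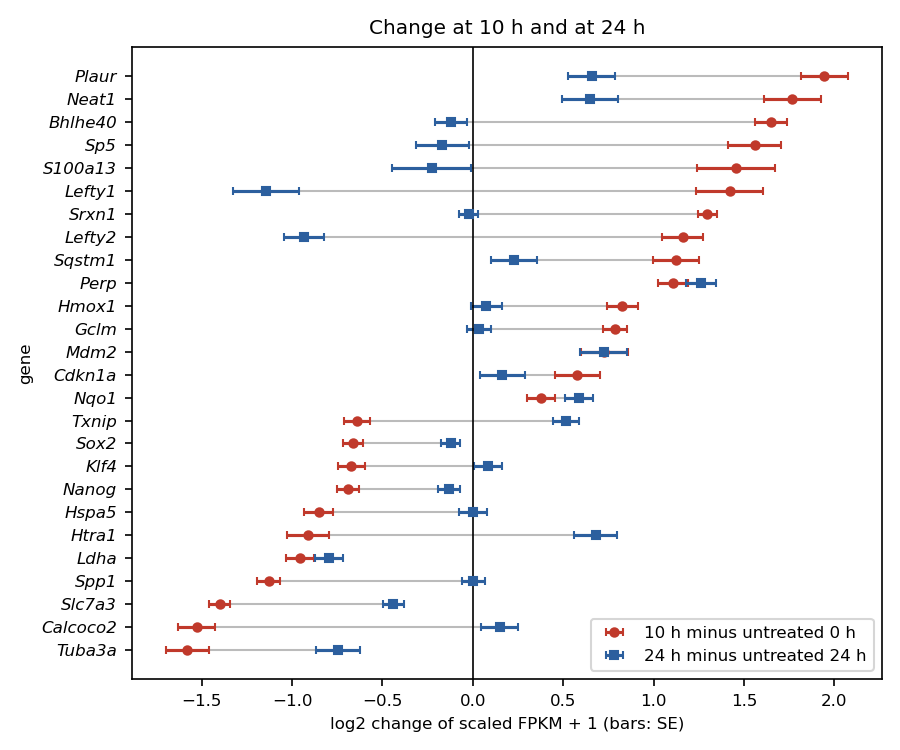
Log2 change of scaled FPKM + 1 at 10 h against untreated 0 h cells (red circles) and at 24 h against untreated 24 h cells (blue squares) for 26 genes, with SE bars. Srxn1, Hmox1, Gclm, Spp1 and Hspa5 lie near 0 at 24 h, Mdm2, Perp, Nqo1 and Ldha keep their side, and Lefty1, Lefty2, Txnip and Htra1 change side.

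With both untreated groups pooled as the control, 4857 genes changed. This control shares the 0 h libraries with the main comparison. Some lists kept their directions: 20 higher and 2 lower of 36 p53 targets, 14 and 5 of 28 NRF2 targets, 28 and 3 of 45 lysosomal genes, 0 and 10 of 14 core pluripotency genes and 0 and 17 of 20 synthetases. Other counts moved: 1 of 6 primitive endoderm genes was lower in place of 4, and 4 of 7 genes of the 2-cell-like state in place of 0. For several genes named above the untreated cells of 24 h were on the same side as those of 0 h. Nanog read 388 ± 17.0 FPKM (mean ± SD, n = 3), Srxn1 13.2 ± 0.577, Phgdh 49 ± 4.38, Plaur 3.47 ± 0.251 and Spp1 369 ± 27.3 in untreated cells at 24 h.

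Markers of other cells were low in these libraries. The hepatocyte markers summed to 1.48, 1.61 and 8.13 in untreated 0 h cells, the last in the third library, with Alb at 2.32 there and Mup3 and Cyp3a11 at 0 in all 6. The 12 fibroblast markers summed to 5.11 to 6.52 at 10 h and 4.38 to 5.26 in untreated cells, and the 9 blood markers to 3.53 to 6.44 and 3.41 to 4.11. The 10 astrocyte and neuron markers summed to 14.5, 8.83 and 14 at 10 h and 3.09 to 5.21 in untreated cells. Within them Gfap was at 2.13, 0.262 and 2.16 and Lcn2 at 2.73, 0 and 2.51 in the 10 h libraries, and both were below 0.3 in every untreated one, while Aldh1l1, a folate enzyme, rose from 2.33, 2.67 and 2.87 to 5.74, 5.62 and 6.59 scaled FPKM (log2 change 0.95 ± 0.071 SE, adjusted p = 3.91e-09). The part of these transcripts in the results was not tested.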

How the data were processed

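Poly(A) RNA was sequenced in 27 libraries from 9 groups of 3, with a stranded paired-end kit per the labels' protocols. Per the submitters' processing notes, the tools were HISAT2 and StringTie with cutadapt, FastQC and edgeR, and the build was mm10. No source used here gives their versions, the gene annotation or the strand setting. The authors deposited FPKM per library and, in the table for this comparison, fold ratios, log2 ratios, p-values and q-values, and no counts. FPKM of all libraries were divided by median-of-ratios factors and kept where 3 of the 6 libraries reached 1, which left 12472 genes. Then log2(FPKM + 1) was fitted with limma 3.58.1 in R 4.3.3 (mean-variance trend, 1 mean per group, 18 residual degrees of freedom), with Benjamini-Hochberg adjustment and a threshold of 0.05. On simulated data for 10 h against untreated 0 h over 12472 genes, 46% of changes of 0.5 and 85% of changes of 1 on the log2 scale were recovered, with 7.75% false among the calls. The simulation changed 100 genes at each size and drew noise independently for each gene and library. The real libraries deviated together and far more genes were called, so these percentages are not error rates of the present calls. The series text describes 3 separate time courses and the labels number the replicates, but no source says that a number marks a course. Same-numbered libraries of both groups deviated together (correlations 0.616, 0.621 and 0.826), although libraries 1 and 2 also correlated crosswise (0.575 and 0.637). The members and lists were chosen with earlier results of these data known. Genes were named by rule: the 10 largest rises and 10 largest falls (mean of 5 FPKM or more in the higher group, groups that do not overlap, same call without the third libraries, usual symbol), up to 4 changed members per list or up to 2 of highest level where none changed, a panel of which 24 genes were tested, and the 5 largest differences each way between times. Others are marked where named. Promoters matched 8774 tested genes by symbol. Alternatives changed the pseudocount, filter, scaling, libraries, weights, block and GC correction. A result on 1 gene is not reported here.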

Additional observations from a re-analysis of the deposited data

Results flagged for a closer look

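The effects at 10 h and at 24 h differed, by the limma test of the difference between the contrasts, in 1126 genes. The difference is the log2 change at 24 h, treated against untreated cells of that time, minus the change at 10 h against untreated 0 h cells, and each value below passed the test with Benjamini-Hochberg adjustment over all genes. Among genes higher at 10 h the values were -1.32 for Srxn1, -0.90 for Sqstm1, -0.75 for Hmox1, -0.75 for Gclm, -1.29 for Plaur, -0.87 for Phlda1, -1.12 for Neat1, -1.77 for Bhlhe40 and -1.73 for Sp5. S100a13, an S100 calcium-binding protein, had a value of -1.68. Lefty1 and Lefty2 had values of -2.57 and -2.09, with higher untreated levels of Lefty1 at 24 h than at 0 h, as given above. Among genes lower at 10 h the values were 0.56 for Nanog, 0.54 for Sox2, 0.76 for Klf4, 0.28 for Zfp42, 0.56 for Mycn, 1.16 for Txnip, 0.96 for Slc7a3, 0.83 for Tuba3a, 1.68 for Calcoco2, 1.30 for Crxos and 1.55 for Khdc3. Cited4, a transcriptional coactivator, and Htra1, a secreted serine protease, had values of 2.00 and 1.59. The mitochondrial tRNA genes, whose values are uncertain, gave -1.62 for mt-Tm, -0.996 for mt-Tp, -0.95 for mt-Ty, 1.76 for mt-Tt and 1.73 for mt-Tw.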

How the results depend on the processing

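None of the genes changed at 10 h and named by rule turned its sign under any alternative run. Of 209 such genes, 205 still passed with a pseudocount of 0.1, 187 without the third libraries, 203 with both untreated groups as the control, 65 in the libraries of the compared groups alone and 12 against a minimum change of 2-fold. Counts that moved by over 1.5 times are given for all changed, higher and lower genes at 10 h in turn. A filter of 5 FPKM, which tests fewer genes, gave 2314, 1137 and 1177, with 475 against 8 h, 2467 against 6 h and 726 for the 24 h effect. Only the libraries of the groups compared gave 419, 268 and 151, with 4 against 8 h and 383 for the 24 h effect. A minimum change of 2-fold gave 15, 12 and 3. Without scaling 1241 genes were lower. Library weights gave 4804 against 8 h, 8637 against 6 h and 3869 for the 24 h effect, and the GC content and length correction gave 1228 against 8 h. Leaving out 1 untreated 0 h or 10 h library at a time (those of other times were kept) gave 2765 to 4556 changed genes, 451 to 1255 against 8 h, 3592 to 5195 against 6 h and 932 to 2296 for the 24 h effect. The counts against 8 h were 487 and 451 without the first and the second 10 h library, and 1255 without the third untreated 0 h library, which also gave the 2296. The cause of these shifts was not tested. The fit with a replicate block gave 4121 changed genes, 839 against 8 h, 4391 against 6 h and 1190 for the 24 h effect. Within the 6 libraries, an alternative chosen after seeing the data, the replicate block gave 2226, 1131 and 1095. Of the genes named in the text, the block changed the call at 10 h against 0 h for Zscan4f and Ptpn14, both gained, and for no other. Absolute depth is unknown, so no counting error is given.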

Other observations

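Of the 3 lowest q-values in the authors' deposited table, 1 belonged to Bhlhe40 and 2 to genes below the 5 FPKM used to choose names, which were named after their values were seen. Gpnmb, a lysosomal and melanosomal glycoprotein, had a fold of 17.107 and a q of 2.89e-64 in the authors' deposited table. Its scaled FPKM was 2.84, 2.93 and 3.02 at 10 h and 0.18, 0.212 and 0.171 in untreated cells, a log2 change of 1.73 ± 0.079 (SE, adjusted p = 3.76e-12) by limma, with the third libraries close to the others. Itga8, an integrin alpha subunit, had a fold of 6.924 and a q of 2.89e-20 in the authors' deposited table, and read 1.61, 2.02 and 1.51 against 0.232, 0.317 and 0.268 (log2 change 1.09 ± 0.08 SE, adjusted p = 2.70e-09). Gpnmb and Itga8 passed the filter on low values only through their 10 h libraries. Of the 934 genes that the authors marked, 521 lay under the filter on low values and were not tested here.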
